A study of Homo sapiens with 24 samples.

Results

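The interferon response and antigen presentation genes examined here are 49 genes taken by symbol from a count table of 35993 genes, and all 49 symbols were found. They comprise 42 interferon-stimulated genes and 7 genes of class I antigen presentation (PSMB8, PSMB9, TAP1, B2M, HLA-B, HLA-C and HLA-E). RNA was sequenced from J82 and RT-112, both established human bladder cancer cell lines. Each line gave 4 groups of 3 biological replicates, 24 libraries in all: parental cells (the control) and sublines labelled CD44 Low, CD44 High and CD44v6 after their level of the cell-surface receptor CD44 or of its v6 splice form. No group carried a labelled drug, cytokine or infection, and how the sublines were made, or whether each is 1 clone, is not given in the sources used here. The question addressed is how the interferon programme varies between the lines and with the CD44 state of the cells.

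Type I, II and III interferons bind their own receptors and act through JAK kinases. The type I and III receptors activate a complex that includes STAT2 and IRF9 and binds interferon-stimulated response elements (ISREs), and interferon gamma signals through gamma-activated sites (GAS) and induces IRF1. The products of the target genes sense foreign RNA, block viral entry, translation and budding, tag proteins with ISG15, and raise the cutting, transport and display of peptides on HLA class I. Many tumour lines keep part of this programme active without added interferon, and others silence it.

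The promoters of the genes show what they share at the level of sequence. The genes were chosen as interferon-stimulated or class I genes. Shared interferon motifs therefore reflect that choice and are not a result of these libraries. RefSeq promoter windows (GRCh38.p14, 250 bases before to 50 after the gene start) were available for 39 of the 49 genes. IRF7, OAS2, OASL, USP18, IFIT2, IFITM2, MX2, GBP2, TRIM22 and HLA-E had no window. Only 1 window per gene was searched, so any other promoter of a gene was not covered. The ISRE core, searched on both strands as GAAA, any 2 bases and GAAA again, was present in 23 of the 39 windows (59.0%) against 996 of all 27305 windows (3.65%). The GAS core, searched as TTCNNNGAA, which reads the same on both strands, was present in 10 of 39 (25.6%) against 2152 of 27305 (7.88%). A GAS match may share bases with an ISRE match, and a match is a string of letters and not a measured binding site. Stretches of 32 to 50 bases from the windows of ISG15, IFIT1, BST2, IFI44, OAS3 and IFI6 are printed as examples of a match in genes described below, read 5′ to 3′ along the gene's strand. In each, 1 ISRE match is in capitals. The whole windows held 2 matches in ISG15, IFIT1, BST2 and OAS3, 3 in IFI6 and 1 in IFI44, and other matches in the printed stretches are left in lower case. The windows of OAS1, PARP9, SAMD9L, STAT2, IRF1, IRF9, PSMB9 and XAF1 held 0 ISRE matches. Those of HERC6, IFI35, RSAD2, CMPK2, SP110, PSMB8, HLA-B and HLA-C also held 0. Each of these genes was called in a comparison below. In IFIT1 and IFI44 the capitals are the reverse complement, since the match lies on the other strand.
ISG15 (chr1:1013370-1013419, plus strand): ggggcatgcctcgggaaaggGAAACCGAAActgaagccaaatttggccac
IFIT1 (chr10:89392500-89392549, plus strand): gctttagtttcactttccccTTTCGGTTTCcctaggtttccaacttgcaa
BST2 (chr19:17405725-17405774, minus strand): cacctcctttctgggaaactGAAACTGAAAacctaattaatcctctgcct
IFI44 (chr1:78649751-78649788, plus strand): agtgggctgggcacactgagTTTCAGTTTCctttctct
OAS3 (chr12:112938442-112938473, plus strand): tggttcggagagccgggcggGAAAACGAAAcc
IFI6 (chr1:27672256-27672305, minus strand): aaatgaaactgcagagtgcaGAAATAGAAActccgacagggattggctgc
The matches in capitals began 107 (ISG15), 103 (IFIT1), 124 (BST2), 18 (IFI44), 12 (OAS3) and 93 (IFI6) bases before the gene start. ISG15 and IFI44, which differed in direction between the groups in RT-112 (below), both had a match.

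Libraries held 16752825 to 24419670 counts. CD44 itself averaged 279 CPM (counts scaled to library size with TMM factors) in J82 CD44 Low and 727 CPM in J82 CD44 High, and 141 and 420 CPM in the corresponding RT-112 groups. Total CD44 counts do not separate the v6 form. Leukocyte and endothelial markers were low. The summed leukocyte markers PTPRC, CD3E, CD14 and LYZ stayed between 0 and 1.67 CPM in all 24 libraries, and PTPRC, which defines leukocytes, averaged at most 0.054 CPM in any group. The leukocyte sum was higher in CD44 Low (1.26 to 1.67 CPM in J82, 0.676 to 0.729 CPM in RT-112) than in CD44 High (0 to 0.731 and 0 to 0.325 CPM). The endothelial sum (PECAM1, VWF and CDH5) was at most 4.19 CPM, with 0.63 to 1.84 CPM in J82 CD44 Low and 0 to 0.196 CPM in J82 CD44 High. The epithelial sum (EPCAM, KRT7, KRT8, KRT18 and KRT19) was 6440 to 7860 CPM in J82 CD44 Low and 8710 to 10600 CPM in J82 CD44 High, with KRT7 called higher. In RT-112 it was 11600 to 13800 CPM in CD44 Low and 9200 to 10400 CPM in CD44 High, with KRT7, KRT8 and KRT19 called lower and EPCAM higher, 4 of 5 markers. The J82 libraries were at 1.11 to 2.30 CPM of the epithelial marker EPCAM by group mean, against 286 to 409 CPM in RT-112, although KRT7 was above 1000 CPM by group mean in both lines. Vimentin (VIM) rose from 231 CPM in J82 CD44 Low to 606 CPM in CD44 High (adjusted p = 2.89e-07, edgeR quasi-likelihood test). The part of these marker differences in the interferon results was not tested.

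The lines differed in nearly all of these genes. Summed over the 49 genes, J82 libraries held 10960 to 15719 CPM and RT-112 libraries 1834 to 2778 CPM, without overlap. Of the 49 genes, 46 were higher in parental J82 than in parental RT-112 and 1 was lower, where 62% of all genes differed (31% higher, 31% lower). Differences were called at an adjusted p under 0.05 in edgeR's quasi-likelihood test, with Benjamini-Hochberg adjustment over all genes tested. The median log2 difference of the 49 genes was 3.70, beside 0.00 over all genes. As bulk libraries, these cannot tell fewer cells with a transcript from less of it per cell.

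MX1, a GTPase that blocks viral nucleocapsids, stood at 950, 874 and 910 CPM in the parental J82 replicates and at 8.17, 8.68 and 7.06 CPM in parental RT-112. This is a 115-fold difference (95% counting interval 105 to 126). IFI6, an inner-membrane protein that counters apoptosis, was at 882, 779 and 939 CPM against 3.69, 3.12 and 4.97 CPM, a 221-fold difference (194 to 252). ISG15, the ubiquitin-like modifier, was at 364, 355 and 352 CPM against 12.9, 17.5 and 17.0 CPM, a 22.3-fold difference. For each of these genes every J82 library lay above every RT-112 library. The intervals cover counting error only.

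Several effectors had few or no counts in RT-112. IRF7, the factor that amplifies type I interferon transcription, had 0 counts in all parental RT-112 libraries against 87.3, 75.9 and 78.6 CPM in J82, which makes it at least 1650-fold higher in J82 with a floor of 3 counts over the group. IFI44L likewise had 0 counts in parental RT-112 and was at least 5680-fold higher in J82. IFITM1, which restricts viral entry at the cell surface, was at 613, 556 and 647 CPM in J82 and at 0, 0 and 0.557 CPM in RT-112. IRF7, IFITM1, IFITM2, IFI27, IFI44L and XAF1 had too few counts to be tested within RT-112, which left 43 of the 49 genes there, whereas all 49 passed in J82.

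The ordering was not the same for each gene. GBP2, a guanylate-binding GTPase, was the exception in direction, with 34.1, 41.9 and 34.3 CPM in parental J82 and 71.2, 100 and 99.5 CPM in parental RT-112 (log2 difference -1.30). SAMD9, an antiviral and growth-restricting protein, was at 492, 499 and 460 CPM in J82 and 498, 492 and 539 CPM in RT-112, and was not called. IRF1 differed by 0.39 on the log2 scale and was not called either. Among the class I genes, B2M, the light chain of every class I molecule, was 3.66-fold higher in J82, HLA-C 6.33-fold, HLA-E 4.40-fold and TAP1 3.41-fold, while HLA-B was 72.0-fold higher. HLA class I genes and IFITM1, IFITM2 and IFITM3 have near-identical paralogs, so their counts are uncertain.

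Per kilobase of the longest coding transcript (GENCODE 29), the genes with the highest level in parental J82 were B2M (1070 CPM per kb), IFI6 (1030), HLA-B (795), IFITM1 (708) and BST2 (518). In parental RT-112 they were B2M (291 CPM per kb), HLA-C (76.6), SAMD9 (74.4), HLA-E (60.0) and GBP2 (40.7). Only B2M was among the top 5 in both lines.

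**Figure D1:**
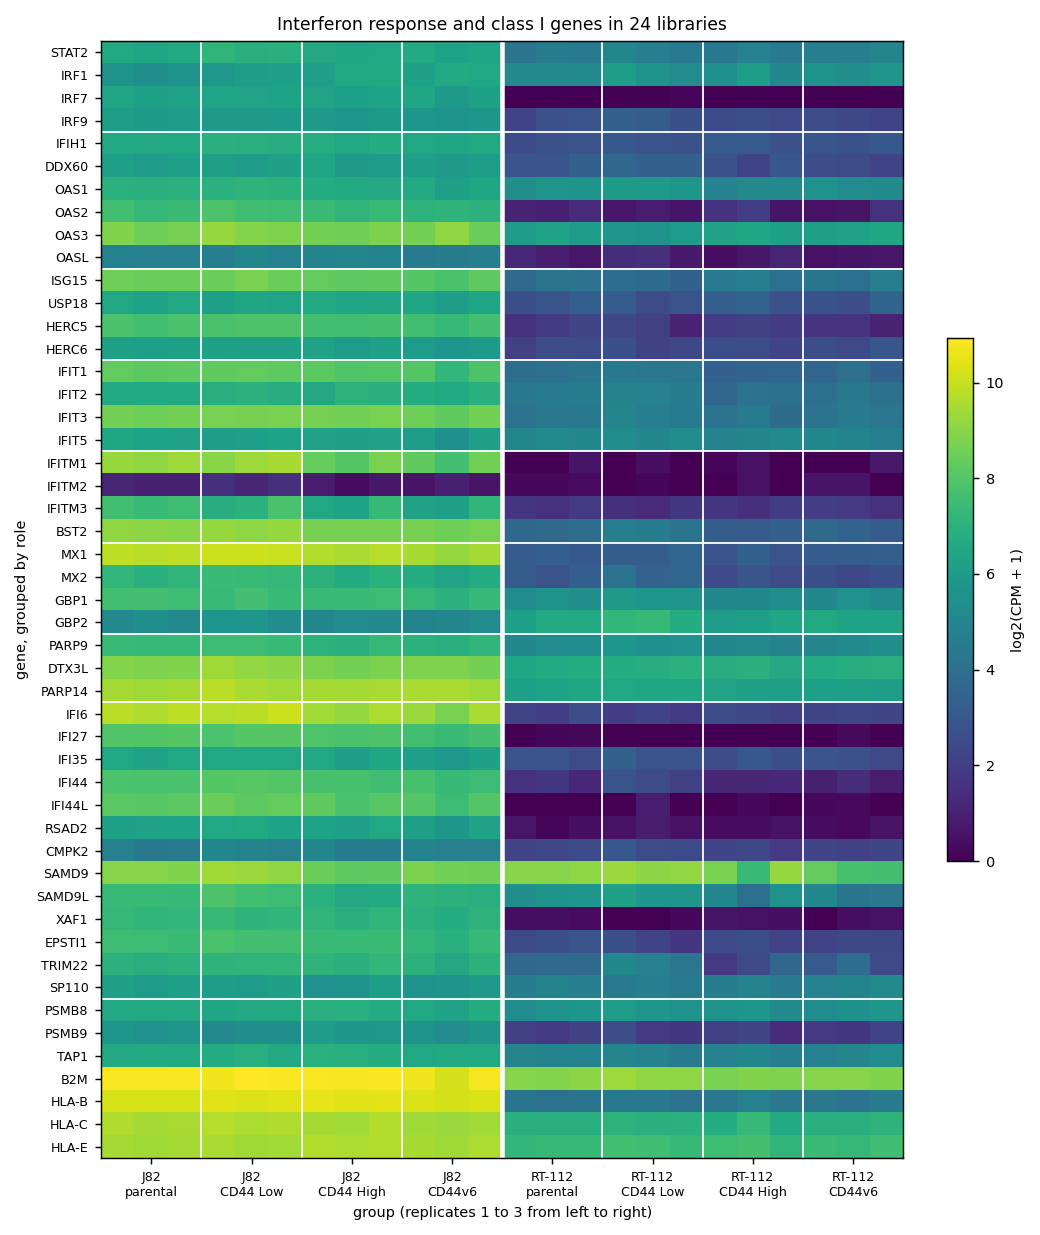
Level of each of the 49 genes, as log2(CPM + 1), in each library; columns are the 3 replicates of the 8 groups and rows are grouped by role, with white lines between roles and groups. The J82 libraries lie above the RT-112 libraries for nearly every gene, with GBP2, SAMD9 and IRF1 as the rows where the lines are close or reversed.

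Within J82, the interferon-stimulated genes that changed were lower in CD44 High cells, with CD44 Low cells as the reference. Of 49 genes tested, 13 were lower and 1 higher, a share of 28.6%, where 15.7% of all genes were called (6.9% lower, 8.83% higher). The median log2 fold change was -0.17, beside -0.02 over all genes. The decreases fell on membrane restriction factors (3 of 4 genes), GTPases (3 of 4), the PARP9 complex (2 of 3), other effectors (3 of 13), the nucleic acid sensors (1 of 6, OAS1) and the signalling factors (1 of 4, STAT2), and on no IFIT gene and no gene of the ISG15 system.

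SAMD9 and its paralog SAMD9L, which lie next to each other and restrict translation, fell most among the well-expressed genes. SAMD9 was at 669, 620 and 558 CPM in CD44 Low and at 354, 293 and 304 CPM in CD44 High, which is -0.95 as a log2 fold change (SE 0.10, adjusted p = 4.21e-05). SAMD9L was at 231, 196 and 181 CPM against 127, 95.4 and 101 CPM, a change of -0.90 (SE 0.12, adjusted p = 0.000306). For both genes the groups did not overlap, and parental J82, at 484 ± 20.7 CPM (SD, n = 3) for SAMD9, lay between them. IFITM1 was at 511, 643 and 716 CPM in CD44 Low against 327, 267 and 426 CPM in CD44 High (log2 fold change -0.87, SE 0.22, adjusted p = 0.0164). Its groups did not overlap, although its replicates varied more than those of SAMD9.

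MX1 was at 1080, 1100 and 1040 CPM in J82 CD44 Low and at 811, 735 and 832 CPM in CD44 High, a change of -0.43 (SE 0.09, adjusted p = 0.00629). DTX3L, the ubiquitin ligase partner of PARP9, changed by -0.44 (adjusted p = 0.00703) and STAT2 by -0.43 (adjusted p = 0.0233). IFITM2, named after its value was seen, had the largest fitted change, -1.55 (adjusted p = 0.0419), at mean levels of 1.64 and 0.549 CPM, from 5 to 34 counts a library. Leaving out 1 library moved the count of called genes from 14 to 7 (CD44 Low replicate 1 or CD44 High replicate 2), 8 (CD44 Low replicate 2) or 9 (CD44 High replicate 1). SAMD9, SAMD9L and BST2 kept their call in all 6 such fits, IFITM1 in 3, STAT2 in 2 and OAS1 in 0 of 6.

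Within RT-112, most of the genes that changed were also lower in CD44 High cells than in the CD44 Low group. Of 43 genes tested, 13 were lower and 2 higher (34.9%), where 16% of all genes were called (7.02% lower, 9.01% higher). The median log2 fold change was -0.25, beside 0.02 over all genes. The decreases included 3 of 4 IFIT genes and 3 of 4 GTPases.

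TRIM22, a ubiquitin ligase that restricts viral transcription, was at 33.0, 25.8 and 18.6 CPM in RT-112 CD44 Low and at 2.53, 4.31 and 11.1 CPM in CD44 High. The groups did not overlap, and the log2 fold change was -2.05 (SE 0.46, adjusted p = 0.0106). CD44 High replicate 3 stood nearest to the CD44 Low libraries; without it the change was -2.89. IFI44, a cytoplasmic effector, was at 5.96, 4.68 and 3.14 CPM against 1.23, 1.26 and 1.30 CPM (log2 fold change -1.82, SE 0.32, adjusted p = 0.00304). It was low in every RT-112 library, with 21 to 139 counts in these 2 groups. BST2, or tetherin, which holds budding virus at the cell surface, was at 24.8, 23.6 and 17.4 CPM against 8.41, 8.16 and 9.20 CPM (change of -1.32, SE 0.17, adjusted p = 0.000533).

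IFIT1 was at 20.3, 18.3 and 18.5 CPM in RT-112 CD44 Low and 9.35, 10.3 and 10.9 CPM in CD44 High, a change of -0.87 (adjusted p = 0.00439). IFIT2 also changed by -0.87 (adjusted p = 0.00293), IFIT3 by -0.53 (adjusted p = 0.0411) and the helicase DDX60 by -0.85 (adjusted p = 0.0249). GBP1 changed by -0.59 (adjusted p = 0.00855). None of these genes had overlapping groups. OAS3 and ISG15 went the other way. OAS3, the sensor of long double-stranded RNA, was at 51.3, 47.0 and 62.6 CPM in CD44 Low and 78.5, 84.0 and 73.3 CPM in CD44 High (log2 fold change 0.58, SE 0.12, adjusted p = 0.00679). ISG15 was at 14.4, 13.5 and 9.38 CPM against 20.8, 24.4 and 15 CPM (log2 fold change 0.71, SE 0.22, adjusted p = 0.0461). Its call was kept in 1 of 6 fits that left out a library.

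**Figure D2:**
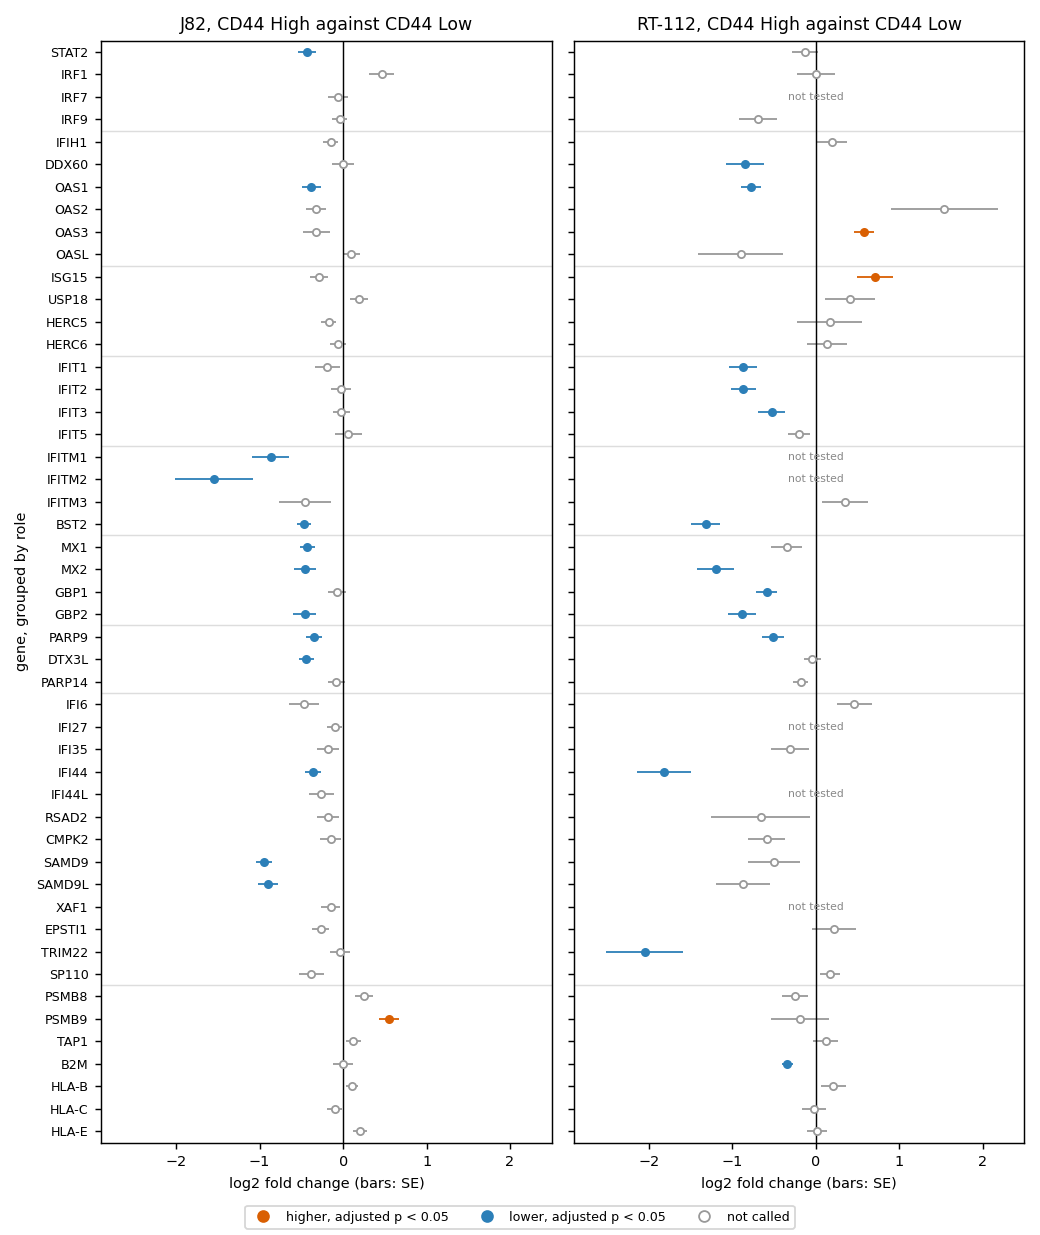
Log2 fold change (points) and its standard error (bars) of each gene in CD44 High against CD44 Low, for J82 on the left and RT-112 on the right, with rows grouped by role; filled points passed an adjusted p under 0.05 and the 6 genes without a point were not tested in RT-112. The 13 genes called lower in each line lie left of 0, with changes down to -1.55 in J82 and -2.05 in RT-112.

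OAS1, BST2, MX2, GBP2, PARP9 and IFI44 were below their CD44 Low level in CD44 High cells of both lines, which is 6 of the 14 genes called in J82 and 6 of the 15 called in RT-112. Of the 14 called in J82, 2 (IFITM1 and IFITM2) could not be tested in RT-112. Among the 43 genes tested in both lines the 6 are 14%, where 105 of all 14237 genes tested in both lines (0.738%) were called lower in both. Calls in 1 line, in either direction, were also more frequent, at 12 (J82) and 15 (RT-112) of the 43, beside 2245 and 2269 of the 14237. Whether the overlap exceeds what these rates give was not tested. No gene was called in opposite directions. BST2 in J82 was at 589, 536 and 588 CPM in CD44 Low and at 409, 410 and 414 CPM in CD44 High, a change of -0.47 (SE 0.08, adjusted p = 0.00151). MX2, which blocks nuclear import of viral complexes, was at 172, 162 and 156 CPM against 128, 101 and 126 CPM in J82 (-0.46, adjusted p = 0.0299). In RT-112 it was at 15.8, 9.86 and 10.8 CPM against 4.47, 6.44 and 4.65 CPM (-1.20, SE 0.22, adjusted p = 0.00353). The MX2 groups did not overlap in either line.

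OAS1, which makes the second messenger that activates RNase L, was at 125, 137 and 129 CPM in J82 CD44 Low and 106, 97.8 and 96.3 CPM in CD44 High (-0.38, adjusted p = 0.0323). In RT-112 it was at 61.5, 58.1 and 54.0 CPM against 27.8, 34.2 and 36.9 CPM (-0.78, SE 0.12, adjusted p = 0.00141). GBP2 was at 52.4, 50.3 and 40.5 CPM against 31.7, 37.9 and 33.9 CPM in J82 (-0.46, adjusted p = 0.0356). In RT-112 GBP2 was at 152, 157 and 107 CPM against 63.4, 70.6 and 87.1 CPM (-0.88, adjusted p = 0.00528). PARP9, a mono-ADP-ribosyltransferase that works with DTX3L, was at 177, 181 and 167 CPM against 133, 122 and 154 CPM in J82 (-0.35, adjusted p = 0.0283). Its RT-112 libraries were at 52.3, 43.6 and 44.6 CPM against 33.7, 34.5 and 28.5 CPM (-0.51, adjusted p = 0.0185). IFI44 in J82 was at 263, 275 and 255 CPM against 211, 216 and 188 CPM (-0.36, adjusted p = 0.0286). Each of these genes separated CD44 Low from CD44 High without overlap in both lines. The J82 calls were the less stable: over the 6 fits that left out a library, PARP9 and GBP2 were called in 2, IFI44 in 1 and MX2 in 3. PARP9 and DTX3L share a bidirectional start and overlap in GENCODE 29, and without a stated strand setting their reads cannot be told apart.

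**Figure D3:**
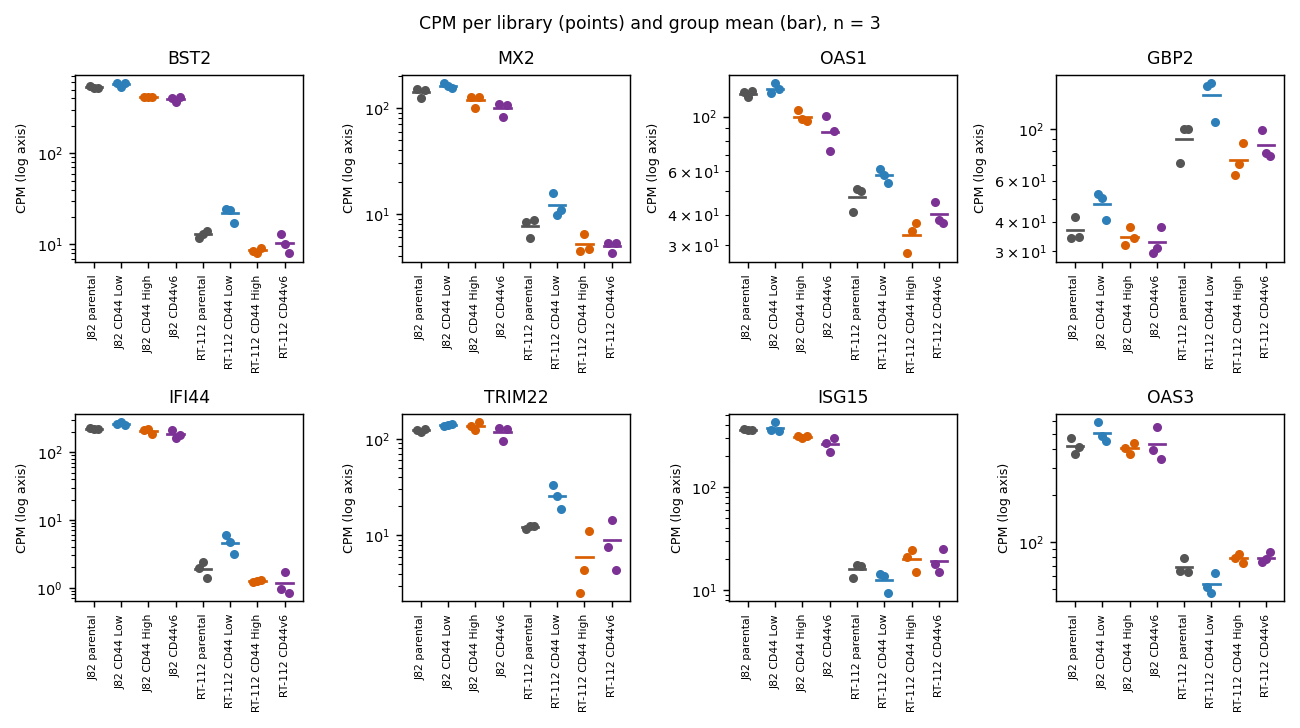
CPM of 8 genes in each library (points, log axis) with the group mean (bar, n = 3) for the 8 groups. BST2, MX2, OAS1, GBP2 and IFI44 are lower in CD44 High and CD44v6 than in CD44 Low in both lines, TRIM22 in RT-112, and ISG15 and OAS3 in RT-112 sit above their CD44 Low level in CD44 High.

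Whether the change from CD44 Low to CD44 High was the same in J82 and RT-112 was examined with an interaction term over all 24 libraries. It differed for 11 of 49 genes (22.4%), where 10.7% of all genes differed (6.24% with a positive and 4.42% with a negative difference). The difference was positive (a smaller fall or larger rise in J82) for TRIM22 (2.04, SE 0.48, adjusted p = 0.0078), IFI44 (1.5, SE 0.28, adjusted p = 0.00153), BST2 (0.88, adjusted p = 0.00363), DDX60 (0.88), IFIT2 (0.87) and GBP1 (0.54). It was negative for OAS3 (-0.88, adjusted p = 0.0099), ISG15 (-0.98, adjusted p = 0.017), IFI6 (-0.89), OAS2 (-1.80) and XAF1 (-3.19). Leaving out J82 CD44 High replicate 1, RT-112 CD44 Low replicate 1 or RT-112 CD44 High replicate 1 left 7 calls each, and DESeq2 made 17.

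TRIM22 in J82 shows the contrast, with 137, 141 and 143 CPM in CD44 Low and 137, 123 and 149 CPM in CD44 High, overlapping groups where RT-112 had none. ISG15 in J82 was at 355, 422 and 351 CPM against 311, 297 and 309 CPM, a change of -0.29 that was not called (adjusted p = 0.0845). IFI6 was at 840, 877 and 1110 CPM against 679, 581 and 774 CPM in J82 (-0.47, adjusted p = 0.101) and at 2.96, 3.60 and 2.60 CPM against 4.76, 4.14 and 3.48 CPM in RT-112 (0.46, adjusted p = 0.16). Neither change was called within its line. OAS2 was at 232, 188 and 186 CPM against 172, 141 and 168 CPM in J82, and at 0.601, 0.766 and 0.542 CPM against 2, 2.99 and 0.557 CPM in RT-112. XAF1, a proapoptotic factor, had 0, 0 and 3 counts in RT-112 CD44 Low and 9, 7 and 8 in CD44 High, beside 161, 137 and 146 CPM against 140, 116 and 142 CPM in J82. These RT-112 counts are small, and without RT-112 CD44 Low replicate 3 the XAF1 difference was -6.26.

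**Figure D4:**
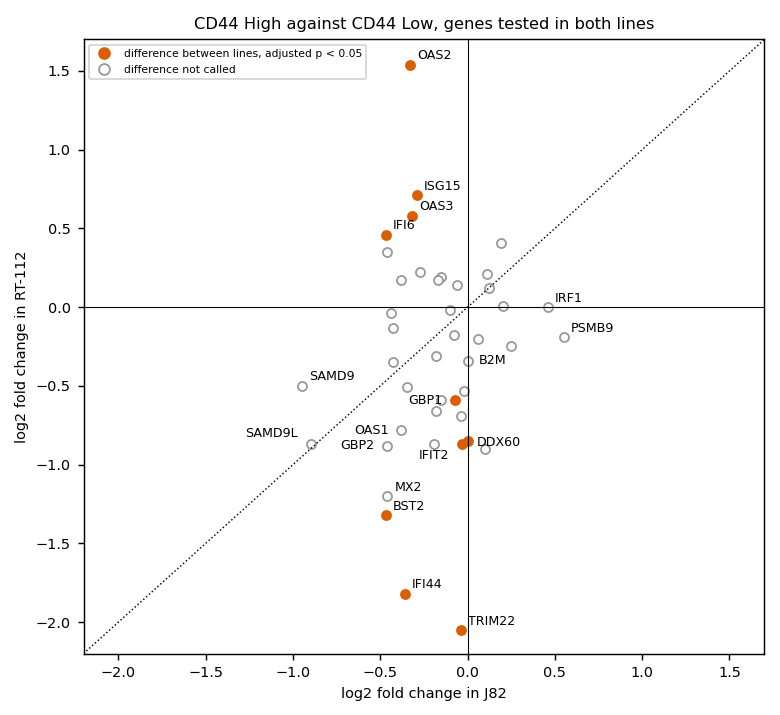
Log2 fold change in CD44 High against CD44 Low in J82 (horizontal axis) and in RT-112 (vertical axis) for the 43 genes tested in both lines; the dotted line marks equal change and filled points passed an adjusted p under 0.05 for the difference between the lines. TRIM22, IFI44 and BST2 lie far below the line, and OAS2, ISG15, OAS3 and IFI6 lie above it.

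CD44v6 cells also had lower levels of many of these genes than CD44 Low cells. Against CD44 Low, 18 of 49 genes were lower and 0 higher in J82 CD44v6, where 9.58% of all genes were called (3.4% lower, 6.18% higher). With only the 2 compared groups in the fit the J82 count was 7. In RT-112 CD44v6, 15 of 43 were lower and 2 higher, where 16% of all genes were called (8.03% lower, 7.97% higher). These comparisons share the CD44 Low libraries with those above, so they are not independent of them. OAS1, BST2, MX2, GBP2, IFI44, SAMD9 and SAMD9L were lower in both lines, 7 of the 18 and 7 of the 17 genes called. They are 16.3% of the 43 genes tested in both lines, where 77 of all 14237 genes (0.541%) were called lower in both. Calls in 1 line were also more frequent, at 16 (J82) and 17 (RT-112) of the 43, beside 1353 and 2292 of the 14237. Whether the overlap exceeds what these rates give was not tested.

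In J82 CD44v6 the largest changes were in IFITM1 (306, 203 and 392 CPM, log2 fold change -1.05, adjusted p = 0.00822), MX2 (109, 82.6 and 106 CPM, -0.71, adjusted p = 0.00341) and MX1 (729, 589 and 710 CPM, -0.66, adjusted p = 0.000483). All 3 genes lay below every CD44 Low library. ISG15 (-0.52, adjusted p = 0.00838), OAS2 (-0.59, adjusted p = 0.00594) and IFI27 (-0.39, adjusted p = 0.0194) were also lower. In RT-112 CD44v6, IFI44 was at 0.951, 1.7 and 0.842 CPM (-1.99, adjusted p = 0.00229), TRIM22 at 7.61, 14.5 and 4.38 CPM (-1.55, adjusted p = 0.0341) and SAMD9L at 32.0, 18.2 and 19.0 CPM (-1.38, adjusted p = 0.015).

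SAMD9 in RT-112 was at 627, 516 and 569 CPM in CD44 Low, 418, 170 and 585 CPM in CD44 High and 311, 212 and 207 CPM in CD44v6. Its CD44 High libraries were spread from below the CD44v6 range to above the CD44 Low median, so that only the CD44v6 change (-1.24, adjusted p = 0.0213) was called. The RT-112 count of 17 fell to 6 without CD44 Low replicate 1 or CD44v6 replicate 3 and to 10 without CD44v6 replicate 2. IFI44 kept its CD44v6 call in all 6 fits that left out a library, SAMD9 and SAMD9L in 3 and TRIM22 in 2. CD44v6 against CD44 High gave 0 called genes in edgeR in J82 and in RT-112, where 0% of all genes were called. At an unadjusted p under 0.05 there were 10 of 49 and 2 of 43 genes, where 9.63% and 4.25% of all genes passed. DESeq2 called 0 in both lines. The fitted change was negative for 42 of 49 genes in J82 (median log2 fold change -0.17, beside 0 over all genes). In RT-112 it was negative for 26 of 43 (median -0.06, beside -0.01).

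Against parental cells fewer genes changed. In J82 CD44 High 4 of 49 were called, 1 higher and 3 lower (2.94% of all genes, 1.71% higher and 1.23% lower), in J82 CD44v6 7 of 49, 1 higher and 6 lower (2.6% of all genes, 1.86% higher and 0.74% lower), and in J82 CD44 Low 0 of 49 (5.34% of all genes, 2.26% higher and 3.08% lower). For J82 CD44 Low 11 of the 49 genes had an unadjusted p under 0.05 in edgeR, near the share of all genes (22.2%). DESeq2 called 4, and its share over all genes is not given here. Parental libraries are shared by the comparisons of a line.

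IRF1 was the only one of the 49 genes called higher than in parental J82 in both the CD44 High and the CD44v6 cells. It was at 46.8, 42.7 and 46.0 CPM in parental J82, 55.3, 69.0 and 70.8 in CD44 Low, 70.5, 98.8 and 98.9 in CD44 High, and 74.3, 103 and 94.2 in CD44v6. The log2 fold change against parental was 0.99 (SE 0.15, adjusted p = 0.00416) in CD44 High and 1 (SE 0.15, adjusted p = 0.00712) in CD44v6. All subline libraries lay above all parental ones, and the change in CD44 Low, 0.52, was not called (adjusted p = 0.0656). SAMD9 (-0.61, adjusted p = 0.00607), SAMD9L (-0.59, adjusted p = 0.0205) and BST2 (-0.36, adjusted p = 0.0269) were lower in J82 CD44 High than in parental cells. In J82 CD44v6, IFITM1 (-1.01, adjusted p = 0.0322), OAS1 (-0.51, adjusted p = 0.0304), ISG15, BST2, MX1 and IFI27 were lower.

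These counts moved with single libraries. The J82 CD44v6 count of 7 became 0 without parental replicate 1 or 2, 1 without parental replicate 3, 4 without CD44v6 replicate 1, 2 without CD44v6 replicate 2 and 13 without CD44v6 replicate 3. It was 15 in DESeq2 and 1 with only the compared groups in the fit. The J82 CD44 High count of 4 became 2 without any 1 of the parental replicates or without CD44 High replicate 2. IRF1 and SAMD9 kept their calls in CD44 High in all 6 fits, and IRF1 in CD44v6 in 4 of 6. SAMD9L in CD44 High and IFITM1 in CD44v6 kept theirs in 1 of 6, and OAS1 in CD44v6 in 2 of 6.

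In RT-112, BST2 (11.8, 12.9 and 14.2 CPM in parental cells, log2 fold change 0.72, adjusted p = 0.0374) and IFI44 (1.93, 2.39 and 1.39 CPM, 1.24, adjusted p = 0.0496) were higher in CD44 Low than in parental cells, 2 of 43 genes, where 3.2% of all genes were called (1.33% higher, 1.87% lower). Without CD44 Low replicate 3 the count was 4, and without any other library of these groups it was 0. RT-112 CD44 High and CD44v6 against parental gave 0 called genes in edgeR, where 0.511% (0.249% higher, 0.262% lower) and 0.614% (0.288% higher, 0.326% lower) of all genes were called. At an unadjusted p under 0.05 there were 5 and 9 genes, where 12.3% and 15.3% of all genes passed, and DESeq2 called 3 and 1. Parental RT-112 lay between CD44 Low and CD44 High for BST2, TRIM22 (11.5, 12.4 and 12.6 CPM) and IFI44 by group mean. The line difference in the change from parental cells was called for 0 genes in CD44 Low and in CD44v6 (1.06% of all genes, 0.304% positive and 0.757% negative, and 0.138%, 0.0688% in each direction). There 9 and 10 genes had an unadjusted p under 0.05 in edgeR, where 13.8% and 14.4% of all genes did, and DESeq2 called 3 and 0.

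The factors upstream were examined whatever their result. STAT2, the subunit that carries the activation domain, was at 141, 113 and 121 CPM in J82 CD44 Low and 96.6, 88.6 and 92.9 CPM in CD44 High, without overlap. In RT-112 it was at 31.2, 25.6 and 21.5 CPM against 20.7, 28.1 and 21.1 CPM, overlapping groups (-0.13, adjusted p = 0.608). IRF9, the DNA-binding subunit, was at 57.7, 56.9 and 61.8 CPM against 57.8, 51.9 and 61.4 CPM in J82 (-0.04, adjusted p = 0.813). In RT-112 IRF9 was at 9.31, 8.42 and 5.42 CPM against 4.53, 5.23 and 4.32 CPM (-0.69, adjusted p = 0.0561), and it was called lower in CD44v6 (4.66, 4.13 and 3.54 CPM, -0.91, adjusted p = 0.0185). IRF1 in RT-112 was at 66.2, 46.8 and 37.1 CPM in CD44 Low and 44.2, 69.8 and 33.2 CPM in CD44 High, overlapping groups with a fitted change of 0.00.

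The class I genes gave 1 call of 7 (14.3%) in each line, near the share of all genes called (15.7% in J82, 16% in RT-112). In J82 CD44 High cells 1 of 7 genes was above and 0 below the CD44 Low level. This was PSMB9, an immunoproteasome subunit, named after its value was seen: 34.5, 40.9 and 42.6 CPM in CD44 Low against 63.5, 54.0 and 55.0 CPM in CD44 High (log2 fold change 0.55, SE 0.12, adjusted p = 0.00819). The PSMB9 groups did not overlap, and the gene overlaps PSMB8 and PSMB8-AS1 in GENCODE 29. HLA-B was at 1340, 1320 and 1350 CPM against 1460, 1400 and 1450 CPM (0.11, adjusted p = 0.287), groups that separated by a small margin without being called. HLA-E was at 745, 665 and 683 CPM against 803, 777 and 818 CPM (0.20, adjusted p = 0.0988), and HLA-C at 836, 763 and 791 CPM against 723, 681 and 820 CPM (-0.10, adjusted p = 0.488). B2M was at 1650, 1950 and 1860 CPM against 1820, 1750 and 1880 CPM, with a change of 0.00 (SE 0.12).

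In RT-112 the called gene of the 7 was B2M, which was lower: 641, 556 and 537 CPM in CD44 Low against 425, 458 and 456 CPM in CD44 High (log2 fold change -0.34, SE 0.07, adjusted p = 0.00904). The groups did not overlap and the call was kept in 6 of 6 fits that left out a library. HLA-B in RT-112 was at 20.2, 19.7 and 16.2 CPM against 18.3, 26.4 and 19.0 CPM (0.21, adjusted p = 0.363). HLA-C was at 134, 120 and 124 CPM against 108, 160 and 99.6 CPM (-0.02), and HLA-E at 193, 190 and 157 CPM against 183, 206 and 143 CPM (0.01). These 3 heavy chains overlapped between the groups.

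Genes outside the 49 that make, receive or limit interferon were read from lists of the pathway. Of 8 interferon ligands, IFNK, IFNW1, IFNG and IFNL2 had 0 counts in all 24 libraries, and IFNB1 averaged 0.261 to 0.361 CPM in the J82 groups and 0 in RT-112. Only IFNE had enough counts to be tested. It was called in none of the 6 comparisons within J82 (adjusted p from 0.644 to 0.932), and it was higher in parental J82 (0.623, 0.493 and 0.681 CPM) than in parental RT-112, where it had 0 counts (adjusted p = 0.00127). Interferon alpha genes were not in the list. Of 9 receptor chains and kinases, 3 were higher and 2 lower in J82 CD44 High than in CD44 Low, and 0 were higher and 4 lower in RT-112. Over all genes, 8.83% were higher and 6.9% lower in J82, and 9.01% and 7.02% in RT-112, and the counts of the lists below read against the same shares.

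JAK1, the kinase shared by all 3 interferon receptor types, was higher in J82 CD44 High (237, 245 and 220 CPM against 164, 180 and 160 CPM in CD44 Low, log2 fold change 0.49, adjusted p = 0.00202). It was lower in RT-112 CD44 High (135, 166 and 167 CPM against 240, 205 and 210 CPM, -0.45, adjusted p = 0.00786). IFNGR2, the signalling chain of the gamma receptor, also rose in J82 and fell in RT-112, by 0.77 (J82, adjusted p = 0.00292) and -0.48 (RT-112, adjusted p = 0.0194). Both differences between the lines were called (JAK1 0.97, adjusted p = 7.89e-05; IFNGR2 1.27, adjusted p = 0.000224). In J82, TYK2 was lower (-0.54, adjusted p = 0.00984), IFNGR1 was lower (-0.42; named after its value was seen), and IFNLR1 was higher but near the limit of detection (1.38 to 1.67 CPM against 0 to 0.515 CPM). In RT-112, IFNAR2 (-0.48, adjusted p = 0.00946) and IL10RB (-0.45, adjusted p = 0.0224) were lower.

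Of the sensing and induction genes, 1 of 8 was higher in J82 CD44 High (STING1, the adaptor of cytosolic DNA sensing, 1.16, adjusted p = 0.00676) and 2 of 8 in RT-112 CD44 High (the RNA sensor DDX58, 0.59, adjusted p = 0.0177, and its adaptor MAVS, 0.45, adjusted p = 0.026). None was lower, and 1 of 8 (12.5%) is near the share of all genes. Of 7 other listed genes, mostly negative regulators, 1 was lower in J82 (PIAS1, -0.42) and 2 were higher in RT-112 (SOCS3, 0.55, and PTPN1, 0.45). This list held SOCS1, SOCS3, PIAS1, PTPN1, PTPN2, IRF2 and ISG20, and the label of negative regulator is not meant for ISG20. Of the other class I presentation genes, 6 of 14 were higher and 1 lower in J82 CD44 High. They included the peptide-trimming enzymes ERAP2 (0.91, adjusted p = 0.000177) and ERAP1 (0.75, adjusted p = 0.00245), while NLRC5, the class I transactivator, was lower (-0.68, adjusted p = 0.0203). In RT-112, TAP2 (0.78, adjusted p = 0.0157) and ERAP1 (0.42, adjusted p = 0.0173) were higher and PSME2 (-0.37, adjusted p = 0.0348) was lower among 13 tested.

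The interferon-inducible chemokines and checkpoint genes were tested mainly in J82. Of 5 tested, 3 rose and 1 fell from CD44 Low to CD44 High. CCL5, a T-cell chemoattractant, was at 15.2, 23.6 and 24.4 CPM in CD44 Low and at 85.5, 84.4 and 87.3 CPM in CD44 High (log2 fold change 2.03 with SE 0.20, adjusted p = 1.97e-05), with parental cells between, at 49.8, 48.2 and 46.3 CPM. CXCL11 changed by 1.78 (adjusted p = 0.026) and IDO1, a tryptophan-degrading enzyme, by 1.5 (adjusted p = 0.00117), from 2.06, 2.86 and 2.29 CPM to 7.19, 6.42 and 6.74 CPM. CD274, which encodes PD-L1, was lower, at 40.5, 46.8 and 46.6 CPM in CD44 Low against 29, 28.1 and 26.2 CPM in CD44 High (-0.68, adjusted p = 0.00192). In RT-112 only CD274 had enough counts, and it was not called (0.63, adjusted p = 0.161). CD74, the class II invariant chain, was the 1 of 7 class II genes called in J82 (higher, 1.7, adjusted p = 0.00141). The 3 constitutive proteasome subunits (PSMB5, PSMB6 and PSMB7) changed by 0.21 to 0.33 in J82 and by 0.10 to 0.21 in RT-112, and none was called, with adjusted p from 0.068 to 0.504 in edgeR.

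**Figure D5:**
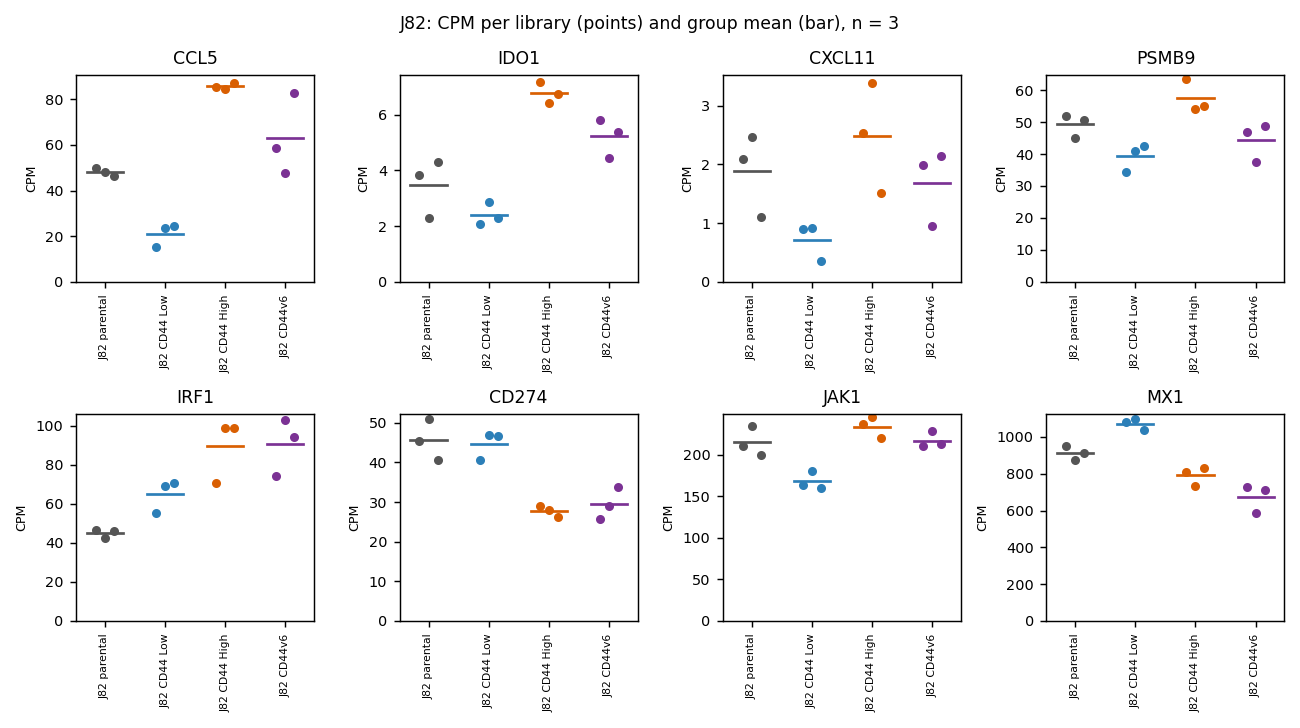
CPM of 8 genes in each J82 library (points) with the group mean (bar, n = 3) in parental, CD44 Low, CD44 High and CD44v6 cells, on linear axes from 0. CCL5, IDO1, CXCL11, JAK1 and PSMB9 are higher in CD44 High cells than in CD44 Low cells, CD274 and MX1 are lower, and IRF1 (change not called, adjusted p = 0.0524) is lowest in parental cells.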

How the data were processed

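Total RNA of 24 libraries (8 groups of 3 biological replicates) was sequenced by a service company. The deposited table holds raw whole-number counts by gene symbol, which the authors did not normalize. The submitters' processing notes name HISAT2, StringTie and GRCh37, while versions, annotation and strand setting are not given in the sources used here. Columns were matched to samples by title.

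Counts were tested in R 4.3.3 with edgeR 4.0.16 (filterByExpr, TMM factors, glmQLFit and glmQLFTest, two-sided), separately in each line (12 libraries, a model of group alone; 15951 genes in J82, 15645 in RT-112), and over all 24 libraries (17438 genes) for parental J82 against parental RT-112 and for 3 interaction contrasts, in 16 comparisons. Benjamini-Hochberg adjustment ran over every gene in a fit, and a call is an adjusted p under 0.05. CPM levels use the factors of the 24-library fit, so small differences from the fitted fold changes occur. Where a count is 0, the floor is 3 counts over the group. Plots used matplotlib 3.10.9 under Python 3.11.15, adding 1 to CPM before the log2 of the heat map. The scripts were tested on simulated data.

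The 49 genes, the pathway lists and the naming rule were chosen with earlier results of these data known. The rule names, with values per library, up to 3 called genes with the largest change per within-line comparison (average log2 CPM of at least 1), genes called in both lines, up to 6 genes per interaction contrast, and STAT2, IRF9, IRF1, ISG15, B2M, HLA-B, HLA-C and HLA-E: 22 genes. Pathway lists give up to 3 called genes each. Some listed genes are not reported here. Other genes were named after their values were seen.

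In GENCODE 29, 22 of the 49 genes share exonic bases with another gene (9 on the same strand, 16 on the opposite strand). Replicate pairs differed by a chi-square per degree of freedom of 6.42 to 63.7, so none agree within sampling noise. Replicate numbers are shared between groups, and the labels do not say what they mark. Deviations of same-numbered libraries correlated above 0.1 in all 3 pairs only for J82 CD44v6 against CD44 High (0.11 to 0.25), where the data and not the labels give the pairing and the blocked fit called 0 of the 49 genes, as did the fit without the block. Against J82 CD44 Low, replicate 3 alone correlated at 0.38 in CD44v6 and 0.23 in CD44 High. The block changed the counts of some other comparisons, given below. Alternatives were median-of-ratios factors, no filter, DESeq2 1.42.0, a replicate block, the compared groups only, and leaving out each library.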

Additional observations from a re-analysis of the deposited data

Results flagged for a closer look

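The values here are differences between the lines (the log2 fold change in J82 minus that in RT-112) that passed an adjusted p under 0.05 in edgeR's interaction test over 24 libraries. They are given without explanation.

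For CD44 High against CD44 Low, the difference was positive for TRIM22 (2.04), IFI44 (1.5), BST2 (0.88), DDX60 (0.88), IFIT2 (0.87) and GBP1 (0.54). It was negative for OAS3 (-0.88), IFI6 (-0.89), ISG15 (-0.98), OAS2 (-1.80) and XAF1 (-3.19). TRIM22 and IFI44 kept their call in all 12 fits that left out a library, ISG15 in 11, XAF1 in 10, OAS2 in 4 and IFI6 in 2. RT-112 held at most 9 counts of XAF1 in a library.

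Among the pathway genes outside the 49, the same difference was called for the receptor chains and kinases IFNLR1 (2.42), IFNGR2 (1.27), JAK1 (0.97) and TYK2 (-0.67), for STING1 (1.41), for PIAS1 (-0.67) and for CD274 (-1.28). It was also called for the class I presentation genes HLA-F (7.14), ERAP2 (0.91), PSMB10 (0.81), PSME2 (0.70) and PDIA3 (0.47), and for CD74 (5.66). HLA-F and CD74 had too few counts to be tested within RT-112, so the size of their differences depends on the prior count of the fit. For CD44 Low against parental cells the difference was called for JAK1 (-0.76) and PIAS1 (0.66).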

How the results depend on the processing

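The numbers here are how many of the 49 genes were called. With 3 libraries a group, leaving out 1 of them gave ranges of 7 to 11 for J82 CD44 High against CD44 Low (14 with all libraries), 13 to 18 for J82 CD44v6 against CD44 Low (18), 0 to 2 for J82 CD44 Low against parental (0), 2 to 4 for J82 CD44 High against parental (4), 0 to 13 for J82 CD44v6 against parental (7), 11 to 17 for RT-112 CD44 High against CD44 Low (15), 6 to 16 for RT-112 CD44v6 against CD44 Low (17), 0 to 4 for RT-112 CD44 Low against parental (2), 0 to 1 for RT-112 CD44 High against parental (0) and for RT-112 CD44v6 against CD44 High (0). The line differences gave 7 to 13 for CD44 High against CD44 Low (11) and 0 to 4 for CD44 Low against parental (0). Parental J82 against parental RT-112 gave 46 to 47.

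With the compared groups only, the counts were 7 for J82 CD44v6 against CD44 Low, 2 for J82 CD44 Low against parental, 7 for J82 CD44 High against parental, 1 for J82 CD44v6 against parental, 4 for RT-112 CD44 Low against parental, 4 for RT-112 CD44v6 against parental, and 3 and 1 for the line differences of CD44 Low and CD44v6 against parental. DESeq2 gave 4 for J82 CD44 Low against parental, 15 for J82 CD44v6 against parental, 4 for RT-112 CD44 Low against parental, 3 for RT-112 CD44 High against parental, 1 for RT-112 CD44v6 against parental, and 17 and 3 for the line differences of CD44 High against CD44 Low and CD44 Low against parental. Without a filter, RT-112 CD44 Low against parental gave 0. With a replicate block the counts were 5 for J82 CD44 Low against parental, 11 for J82 CD44v6 against parental, 0 for RT-112 CD44 Low against parental and 1 for the line difference of CD44 Low against parental. The other counts were within 1.5 times under these settings. Fewer libraries were fitted under the first setting; for the rest the cause was not tested.

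Of 50 called results of named genes, 50 were kept by DESeq2, 49 with median-of-ratios factors, 45 with the replicate block, 44 without a filter and 42 with the compared groups only, and 0 reversed. Leaving out 1 library is not in this tally. Over those fits, 63 results of named genes, called or not, were followed. The outcome was the same 309 times, a call was lost 101 times and a call was gained 2 times. Another 2 were counted as reversed, in results not called with all libraries. The IRF1 change between the CD44 High and CD44 Low groups of RT-112, at 0.00 and not called, was 0.24 without CD44 Low replicate 1 and -0.33 without CD44 High replicate 2. Depth limits IFI44, OAS2, XAF1 and IFITM2 in RT-112, where counts were small.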
